A study of Mus musculus with 6 samples.

Results

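The interferon-inducible GTPases described here are 10 mouse genes, the guanylate-binding proteins Gbp2, Gbp3, Gbp4, Gbp5, Gbp6 and Gbp7 and the immunity-related GTPases Irgm1, Irgm2, Igtp and Iigp1. A gene was measured where a probe set of the array is annotated to it alone. This held for 8 of the 10 genes, out of 30738 genes with a probe set of their own and 65956 probe sets in all. Gbp5 shares its probe set with Gbp2b, and Gbp6 shares its probe set with Gbp10, so that neither has a level of its own. RNA was taken from sorted LSK cells, the lineage-negative, Sca1+, cKit+ stem and progenitor cells of the bone marrow, and hybridised to 6 arrays. In both groups exon 4 of Ash2l is flanked by loxP sites on both alleles (Ash2l exon4 fl/fl). Ash2l is a core subunit of the complexes that methylate histone H3 at lysine 4. The 3 Ash2l KO samples also carry MxCre, in which the Mx1 promoter, itself switched on by interferon, drives the recombinase, and the 3 control samples do not. Both groups received 3 injections of poly(dIdC), called pIC in the study, on alternating days, and marrow was taken on day 10. Control cells had thus been exposed to the same interferon inducer as KO cells. The labels give no age for single animals and do not say whether RNA of several animals was pooled for an array, so the p-values measure only the spread between these samples.

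Guanylate-binding proteins and immunity-related GTPases are enzymes that cells make in quantity after interferon, and that gather on vacuoles holding bacteria or parasites and on the microbes themselves. Guanylate-binding proteins help to break such vacuoles and to bring inflammasome components to the exposed microbe. Among the immunity-related GTPases, Irgm1, Irgm2 and Igtp (Irgm3) sit on the cell's own membranes and hold the effector members, such as Iigp1 (Irga6), in their inactive state there. In mouse bone marrow, Irgm1 is also known as a gene that stem cells need to restrain their response to interferon. Transcription of these genes is driven through the interferon-stimulated response element (ISRE), bound by interferon regulatory factors, and through the gamma-activated site (GAS).

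The bases before the start sites are shown because every member with a promoter entry held an ISRE match there. Promoter windows of 250 bases before and 50 after a start, from RefSeq (GRCm38.p6), matched 7 of the 10 genes. Gbp4, Gbp6 and Iigp1 had no entry. The ISRE was searched as GAAANNGAAA and the GAS as TTCNNNGAA, on both strands, and matches of 1 motif to overlapping letters were both kept. All 7 genes held an ISRE match, against 3.99% of 27025 genes and 3.44% of 32851 windows. Gbp3 had 2 windows, and window 2 held no match to either motif. A GAS match was found in 4 of 7 (Gbp5, Gbp7, Irgm2 and Igtp), against 9.55% of genes and 8.3% of windows. Capitals below mark the ISRE matches and the GAS matches next to them, each stretch reads 5′ to 3′ on the gene's strand, and a match of letters is not a measured binding site.
Gbp2 (chr3:142620584-142620633, + strand): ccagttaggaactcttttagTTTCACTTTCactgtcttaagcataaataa
Gbp3 (chr3:142559979-142560034, + strand): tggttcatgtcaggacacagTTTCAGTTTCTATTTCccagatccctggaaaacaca
Gbp5 (chr3:142496749-142496798, + strand): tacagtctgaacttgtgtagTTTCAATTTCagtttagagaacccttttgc
Gbp7 (chr3:142530210-142530312, + strand): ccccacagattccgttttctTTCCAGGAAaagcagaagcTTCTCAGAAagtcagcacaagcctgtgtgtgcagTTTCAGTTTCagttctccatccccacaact
Irgm1 (chr11:48871421-48871470, - strand): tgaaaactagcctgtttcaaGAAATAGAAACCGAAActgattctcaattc
Irgm2 (chr11:58214882-58214942, + strand): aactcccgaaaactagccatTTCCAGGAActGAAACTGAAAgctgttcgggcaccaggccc
Igtp (chr11:58199491-58199551, + strand): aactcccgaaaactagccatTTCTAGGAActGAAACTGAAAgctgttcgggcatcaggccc

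In the 4 Gbp genes the ISRE match lies on the opposite strand and reads as pairs of TTTC, and in the 3 immunity-related GTPase genes it reads forward. Gbp3 and Irgm1 each hold 2 overlapping matches. In Irgm2 and Igtp a GAS match ends just before the ISRE match. The windows of these neighbouring genes were alike over the part that aligned, 271 positions of which 247 were identical (91.1%). Irgm1, on the same chromosome, shared a shorter stretch with both, with 35 identical of 44 aligned positions (79.5%). Counted from the start site, the ISRE matches of 6 genes lie between positions -64 and -15, and that of Gbp5 lies from -165 to -156.

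On the arrays 7 of the 8 measured genes, all but Gbp4, had the same order of control replicate 3, the KO arrays and the other controls. Control replicates 1 and 2 were the lowest 2 arrays for 8 of 8 genes, against 14.1% of all probe sets. Control replicate 3 lay above every KO array for 7 of 8 genes, all but Gbp4, against 34.0% of all probe sets. No member had every KO array above every control array, whereas 6.15% of all probe sets did. Averaged over the 8 genes, the log2 signal was 10.75, 10.76 and 10.76 in KO replicates 1, 2 and 3, and 9.29, 8.86 and 11.12 in control replicates 1, 2 and 3. Levels below are log2 signals of single probe sets, which can be compared between arrays but not between genes, and each step of 1 is a doubling.

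**Figure D1:**
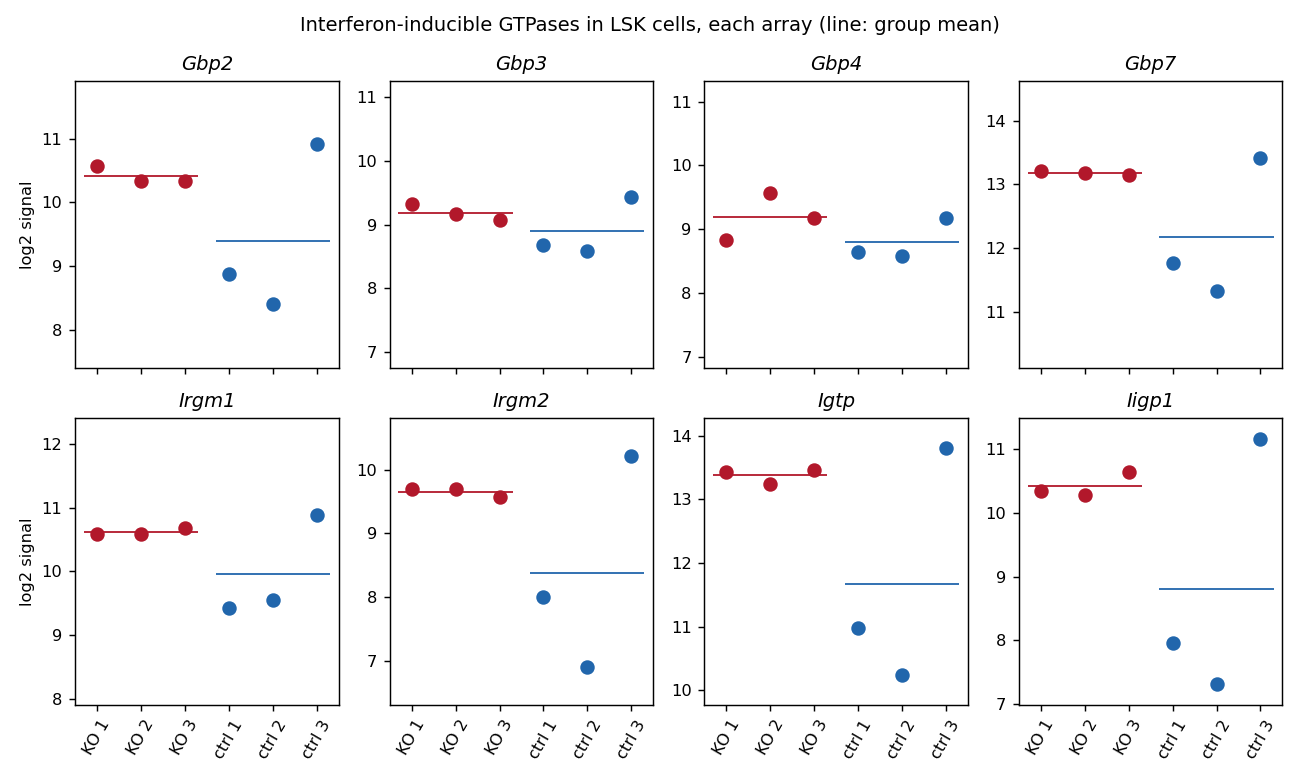
Log2 signal (vertical axis, each panel spanning the same number of log2 units) of the 8 measured genes on each of the 3 KO arrays (red) and 3 control arrays (blue, ctrl), with a line at each group's mean. Control replicates 1 and 2 lie below the other 4 arrays in all 8 panels, and control replicate 3 lies above every KO array in all but Gbp4.

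Among the immunity-related GTPases, Igtp stood at 13.43, 13.24 and 13.46 in the KO arrays and at 10.98, 10.25 and 13.80 in the control arrays. The KO arrays were close together, while the control arrays spread over 3.55 log2 units on either side of them. Igtp was 3.25-fold higher in KO on average (log2 fold change 1.70, standard error 0.84), which did not pass (adjusted p = 0.528, limma). Iigp1, the effector GTPase, was at 10.34, 10.29 and 10.64 in KO and at 7.96, 7.32 and 11.16 in control cells. Its control arrays had the widest range of all 8 members, 3.84 log2 units, and its group difference of 1.61 (standard error 0.92) was smaller than their SD of 2.06 (n = 3). Irgm2 was at 9.70, 9.69 and 9.57 in KO and at 8.0, 6.90 and 10.22 in control cells. The difference was 1.28 (standard error 0.75), with control replicate 2 alone 1.10 below control replicate 1. Irgm1, the restraining gene of stem cells, was at 10.59, 10.59 and 10.68 in KO and at 9.43, 9.55 and 10.88 in control cells. Its difference was 0.67 (standard error 0.37), and it was the only member with control replicate 1 below control replicate 2. The median of these 4 genes was a log2 fold change of 1.45.

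Among the guanylate-binding proteins, Gbp2, which coats parasite vacuoles, was at 10.57, 10.34 and 10.33 in KO and at 8.88, 8.40 and 10.91 in control cells. The difference was 1.02 (standard error 0.60), 2.02-fold. Gbp7 was at 13.21, 13.18 and 13.15 in KO and at 11.77, 11.33 and 13.41 in control cells. Its KO arrays lay within 0.06 log2 units of each other, the tightest of the 8 members, and the difference was 1.01 (standard error 0.49). Gbp3 showed the same order of arrays at a smaller scale, with 9.33, 9.17 and 9.07 in KO, 8.68, 8.58 and 9.43 in control cells, and a difference of 0.29 (standard error 0.23). Gbp4 departed from it. With 8.83, 9.57 and 9.17 in KO and 8.64, 8.58 and 9.17 in control cells, its KO arrays spread over 0.74 log2 units and control replicate 3 lay among them. The Gbp4 difference was 0.39 (standard error 0.24), and the median of the 4 genes was 0.70.

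The members varied together from array to array. Pearson's r between 2 of the 7 measured members other than Gbp4 ranged from 0.94 to 1.00 over the 6 arrays (21 pairs), and with Gbp4 the lowest value was 0.64 (28 pairs). The 6 points of each pair share their arrays and hold 2 groups, so these values are a description. The amplitude differed between members. Control replicate 3 exceeded the mean of the other control arrays by 3.52 for Iigp1, 3.19 for Igtp, 2.77 for Irgm2, 2.27 for Gbp2, 1.86 for Gbp7 and 1.39 for Irgm1, but by 0.80 for Gbp3 and 0.56 for Gbp4.

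The probe sets that name 2 genes are credited to neither. The Gbp5 and Gbp2b probe set was at 7.89, 7.66 and 7.69 in KO and at 7.34, 7.36 and 8.10 in control cells, with control replicate 3 again the highest. The Gbp6 and Gbp10 probe set was at 9.44, 10.15 and 9.92 in KO and at 8.94, 8.23 and 10.04 in control cells, with control replicate 3 between the KO arrays. Their log2 fold changes were 0.15 (adjusted p = 0.865, limma) and 0.77 (adjusted p = 0.598). The families hold near-identical copies, so a probe set named for 1 gene may also take signal from a relative, which was not tested.

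In the comparison of KO with control over all 6 arrays, 0 of the 8 members passed an adjusted p under 0.05 in limma, where 0% of all 65956 probe sets passed as higher in KO. Their adjusted p ranged from 0.525 for Gbp7 to 0.714 for Gbp3. Of the same members, 0 of 8 differed by more than 2-fold with an unadjusted p under 0.01, against 0.594% of probe sets, and 0 of 8 had an unadjusted p under 0.05, against 5.09%. All 8 log2 fold changes lay above 0, with a median of 1.01, where the median of all probe sets was -0.03. The median was 0.53 without control replicate 2, 0.78 without control replicate 1 and 1.70 without control replicate 3.

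Without control replicate 3, an alternative that by its construction leaves only the low controls for 8 of 8 genes, the differences were larger. Igtp was then 6.78-fold higher in KO (log2 fold change 2.76, standard error 0.23, adjusted p = 0.00621, limma). Iigp1 was 6.88-fold higher (2.78, standard error 0.22, adjusted p = 0.00595), and Irgm2 was 4.61-fold higher (2.20, standard error 0.31, adjusted p = 0.0217). Gbp2 and Gbp7 were 3.42-fold and 3.10-fold higher, and Irgm1 was 2.19-fold higher (adjusted p = 0.0101). In all, 6 of 8 members passed an adjusted p under 0.05, against 2.15% of all probe sets, and the same 6 passed over 2-fold and p under 0.01, against 1.86%. Gbp3 (0.56, adjusted p = 0.0876) and Gbp4 (0.58, adjusted p = 0.258) did not pass. For every member the lowest KO array lay above both remaining controls, by 0.19 for Gbp4 and by up to 2.33 for Iigp1. The same held for 11017 of all 65956 probe sets. For the members it follows from control replicates 1 and 2 being the lowest arrays for 8 of 8 genes. Leaving out control replicate 2 instead gave 0.99 for Igtp, 0.86 for Iigp1, 0.54 for Irgm2, 0.52 for Gbp2, 0.59 for Gbp7 and 0.14 for Gbp3, and Irgm1 came to 0.41 without control replicate 1. Gbp4 came to 0.20 without KO replicate 2.

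**Figure D2:**
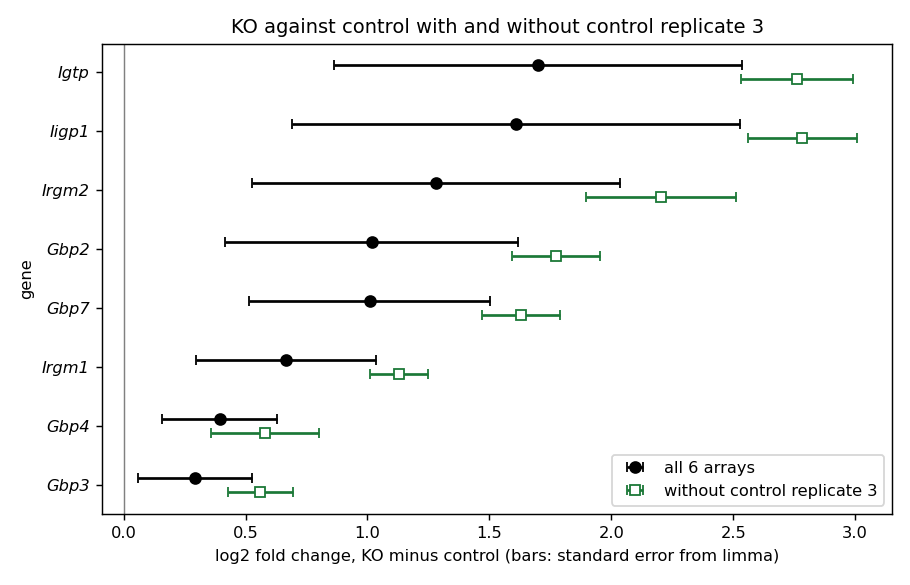
Log2 fold change of KO over control (horizontal axis) for the 8 measured genes, from all 6 arrays (filled circles) and without control replicate 3 (open squares), with bars of 1 standard error from limma. Igtp goes from 1.70 to 2.76 and its standard error from 0.84 to 0.23, and all 8 values move to the right.

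The relatives outside the 10 genes were measured for 9 of 17 listed genes. Gm12250 (Irgb10) was at 10.06, 10.17 and 10.05 in KO and at 8.38, 7.77 and 10.89 in control cells, and Gm4951 was at 10.34, 10.39 and 10.66 in KO and at 7.84, 7.01 and 11.45 in control cells. Both had the shape of the members, with control replicate 3 the highest array. F830016B08Rik, an immunity-related GTPase gene that neighbours Gm4951, was at 10.07, 10.42 and 10.55 in KO and at 6.97, 7.03 and 10.15 in control cells, with control replicate 3 between KO replicates 1 and 2. Its log2 fold change of 2.30 (standard error 0.82, adjusted p = 0.394, limma) was above that of each measured member. Gvin1, a very large interferon-induced GTPase, was at 13.84, 13.79 and 14.15 in KO and at 11.85, 12.20 and 13.38 in control cells. It was the only one of the 9 whose KO arrays all exceeded the control arrays (1.45, standard error 0.38, adjusted p = 0.288, limma). Of all probe sets, 6.15% did so. Gvin1 was also the only one past 2-fold with an unadjusted p under 0.01, against 0.594% of all probe sets higher in KO. Irgc1, known as a testis gene in mouse, and Irgq differed by -0.19 each, and Irgc1 stayed between 5.42 and 5.73, below the array medians of 6.02 to 6.09. Over the 9 genes the median was 0.34, and 2 had an unadjusted p under 0.05 in limma, both higher in KO, against 5.09% of all probe sets. Without control replicate 3, 4 of 9 passed an adjusted p under 0.05 in limma, against 2.15% of all probe sets. They were Gm12250, Gm4951, F830016B08Rik and Gvin1.

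Genes of the chromosome 5 cluster of guanylate-binding proteins followed another order than the members on chromosomes 3 and 11. Gbp8 was at 7.87, 8.97 and 8.59 in KO and at 8.37, 8.16 and 8.75 in control cells, and Gbp9 was at 8.85, 9.69 and 9.08 in KO and at 8.72, 8.89 and 9.0 in control cells. KO replicate 2 was the highest array for both, as it was for Gbp4 and for the Gbp6 and Gbp10 probe set of the same cluster. Gbp11, a pseudogene there, was at 7.71, 8.10 and 8.13 in KO and at 7.83, 7.55 and 8.10 in control cells. The log2 fold changes were 0.05 for Gbp8, 0.34 for Gbp9 and 0.15 for Gbp11, none with p under 0.05 in limma. In KO replicate 2 the 10 measured markers of T and NK cells also had their highest mean, 9.27, against 7.33 to 8.26 on the other arrays, and the part of such cells in these levels was not tested. In these bulk samples fewer cells of a type and less RNA per cell cannot be told apart.

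**Figure D3:**
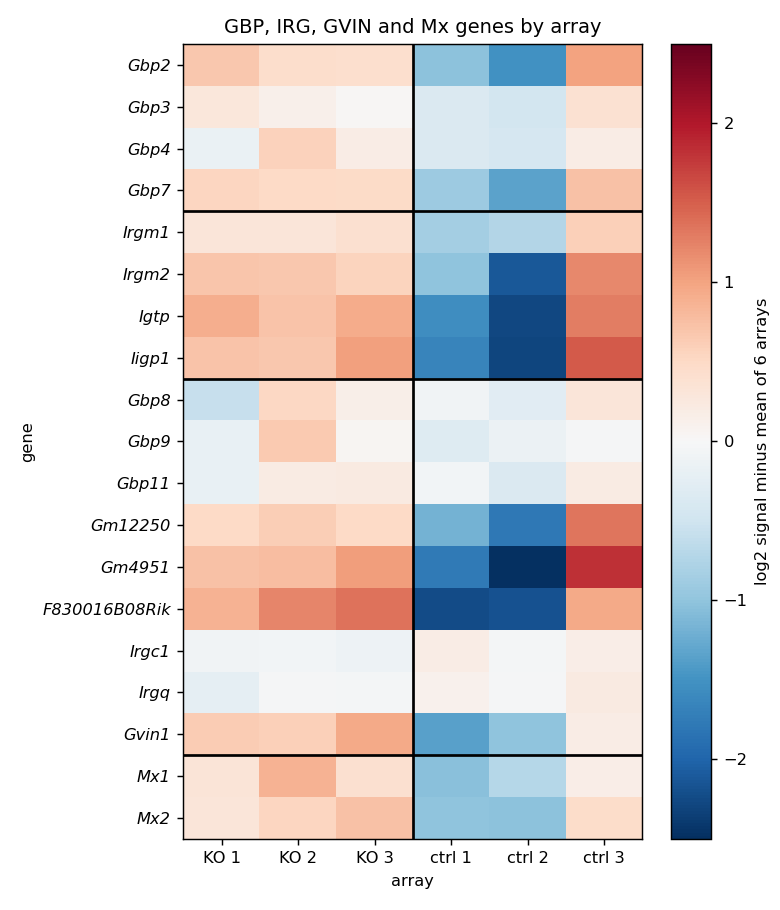
Log2 signal of each gene minus its mean over the 6 arrays (colour, red above and blue below the mean) for the measured guanylate-binding proteins, immunity-related GTPases, 9 relatives and Mx1 and Mx2 (rows, lines between the lists), on each array (columns). The blue columns of control replicates 1 and 2 run through the members, Gm12250, Gm4951, F830016B08Rik, Gvin1, Mx1 and Mx2, while Gbp8, Gbp9 and Gbp11 are highest in KO replicate 2 or 3.

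Mx1 and Mx2 are dynamin-like GTPases that act against viruses and are annotated as pseudogenes in the reference strain. Control replicate 3 was not their highest array, but it exceeded the mean of the other controls by 1.035 for Mx1 and 1.48 for Mx2. Mx1 was at 7.56, 8.09 and 7.62 in KO and at 6.19, 6.52 and 7.39 in control cells, and Mx2 was at 8.13, 8.38 and 8.56 in KO and at 6.83, 6.81 and 8.30 in control cells. Control replicate 3 lay below every KO array for Mx1 and between KO replicates 1 and 2 for Mx2. The log2 fold changes were 1.06 (standard error 0.32) and 1.04 (standard error 0.40), with adjusted p of 0.333 and 0.422 in limma. MxCre carries the promoter of Mx1, and the KO cells alone hold that transgene.

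Interferon genes themselves did not pass the test. The 9 ligand genes measured, with Ifng, Ifnb1, 3 Ifna genes, Ifnk, Ifne, Ifnl2 and Ifnl3, had a median difference of -0.05. Of these, 0 of 9 reached an unadjusted p under 0.05 in limma (0 after adjustment). At that unadjusted threshold 3355 of all 65956 probe sets were higher and 3827 lower. The largest were Ifnk at -0.37, Ifna1 at 0.23, Ifnl3 at -0.12 and Ifnb1 at -0.10. Averaged over the list, the signal stayed between 5.74 and 6.04 on all 6 arrays, close to the array medians of 6.02 to 6.09. Differences close to 0 at such low signals do not show whether these genes changed.

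The receptors and their relay to the nucleus, 9 of 10 genes measured, held differences in both directions. Irf9, which binds the ISRE, was at 9.37, 9.27 and 9.58 in KO and at 8.36, 8.46 and 9.18 in control cells (difference 0.74, standard error 0.23; limma gave an adjusted p of 0.347). Stat2, its partner, was at 9.62, 9.32 and 9.51 in KO and at 8.72, 8.71 and 9.31 in control cells (0.57, standard error 0.19). For Irf9, Stat2 and the kinase gene Tyk2 (0.38, standard error 0.13), all KO arrays exceeded all control arrays, by 0.01 in the case of Stat2. These are 3 of 9 genes, against 6.15% of all probe sets. All KO arrays lay below all control arrays for 1 of 9, Ifnar2, as for 6034 of all 65956 probe sets. Ifngr2, a chain of the interferon gamma receptor, was at 9.24, 8.93 and 9.06 in KO and at 10.36, 10.70 and 9.04 in control cells (-0.96), and Ifnar2, a chain of the type I receptor, was at 12.50, 12.52 and 12.50 in KO and at 13.22, 13.65 and 12.93 in control cells (-0.76). In this list 3 genes were higher and 1 lower at an unadjusted p under 0.05 in limma, and 0 passed after adjustment. Of all 65956 probe sets, 3355 were higher and 3827 lower at that unadjusted threshold.

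Of the interferon regulatory factors, 7 measured, Irf1, the factor that acts on GAS and ISRE genes after interferon gamma, stayed between 8.34 and 8.99 with a difference of 0.06. Irf7, which amplifies the type I response, was at 8.84, 8.91 and 8.95 in KO and at 7.25, 7.17 and 8.73 in control cells (1.18, standard error 0.40). Irf8, a factor of B cells and of monocytes, was at 7.56, 7.57 and 7.41 in KO and at 9.14, 10.74 and 7.98 in control cells (-1.77), and Irf4, another factor of B cells, was at 6.62, 7.33 and 7.13 in KO and at 9.28, 8.97 and 7.40 in control cells (-1.52). Irf5 differed by -0.44. Of the 7, 1 was higher and 3 were lower at an unadjusted p under 0.05, with 0 after adjustment in limma. Of all 65956 probe sets, 3355 were higher and 3827 lower at that unadjusted threshold. Among 8 inhibitors of the signal, Usp18, which blocks the type I receptor, was at 9.72, 10.22 and 9.90 in KO and at 7.75, 7.40 and 9.78 in control cells (1.64, standard error 0.59). It was the only 1 of the 8 with p under 0.05, and Socs1 (0.24), Ptpn2 (-0.23) and Ptpn11 (-0.22) came next in size.

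Genes that place the GTPases or act after them had list medians from 0.01 to 0.18. Of 11 genes of the ATG conjugation system, which directs both families to vacuoles, 2 had an unadjusted p under 0.05, Gabarapl2 (0.60, standard error 0.18) and Gabarap (0.35, standard error 0.14). Atg12 (0.44) and Gabarapl1 (0.42) lay between them in size. Of 8 genes of ubiquitin tagging and adaptor recruitment, Lgals8, a galectin that marks broken vacuoles, was at 10.71, 10.78 and 10.70 in KO and at 9.65, 9.55 and 10.60 in control cells (0.80), and was the only 1 with p under 0.05. Of 11 inflammasome and pyroptosis genes, 4 were higher at that threshold. Casp4, the sensor of bacterial lipopolysaccharide in the cytosol, was at 11.25, 11.59 and 11.06 in KO and at 9.17, 9.52 and 11.09 in control cells (1.37, standard error 0.48), and the others were Casp1 (0.73), Nlrc4 (0.67) and the DNA sensor Aim2 (0.66). Of all probe sets, 5.09% were higher at an unadjusted p under 0.05 in limma, and none of the genes of these lists passed after adjustment. The low pair of control arrays was not confined to the GTPases. Control replicates 1 and 2 were the lowest arrays for 10 of 11 ATG genes, against 14.1% of all probe sets. The same held for 5 of 8 ubiquitin and adaptor genes and for 3 of 11 inflammasome and pyroptosis genes.

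The antiviral genes known chiefly for type I interferon resembled the GTPases in their low pair of control arrays but less in control replicate 3. Control replicates 1 and 2 were the lowest arrays for 16 of 17 genes, against 14.1% of all probe sets. Control replicate 3 exceeded every KO array for 4 of 17, Ifit2, Rsad2, Oasl2 and Ifih1, against 34.0% of all probe sets. Every KO array exceeded every control for 5 of 17, against 6.15%. Oas2, an RNA sensor, was at 10.97, 10.97 and 11.11 in KO and at 7.52, 7.13 and 10.33 in control cells (2.69, standard error 0.78). Zbp1, a sensor of unusual nucleic acid forms, was at 10.76, 10.85 and 10.77 in KO and at 8.33, 8.21 and 10.10 in control cells (1.91, standard error 0.48). Rtp4 (1.99) lay between these genes in size, and Ifit1 (1.68) came after them. The list's median was 1.06, and 0 passed after adjustment in limma. At an unadjusted p under 0.05, 9 of 17 were higher, against 5.09% of all probe sets, where the members had 0 of 8. That difference between the lists was not tested. Without control replicate 3, 15 of 17 passed an adjusted p under 0.05 in limma, against 2.15% of all probe sets.

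Genes known chiefly for interferon gamma, 14 measured, had a median of 0.14, and 0 had p under 0.05 in limma. Control replicate 3 exceeded every KO array for 8 of 14, against 34.0% of all probe sets. Cxcl9, a chemokine that interferon gamma induces, was at 10.78, 9.45 and 10.12 in KO and at 6.05, 6.0 and 10.51 in control cells (2.60, standard error 1.19), with both low controls near the array median. Cxcl10 was at 7.30, 7.26 and 7.06 in KO and at 5.53, 5.07 and 7.77 in control cells (1.08). Psmb10 (0.53) and H2-Ab1 (-0.44) came next. Ciita, Nos2 and Ido1, also induced by interferon gamma, differed by 0.09, -0.09 and 0.00. Nos2 (5.03 to 5.22) and Ido1 (4.73 to 4.79) stayed below the array medians of 6.02 to 6.09, and Ciita (6.02 to 6.58) lay near them. Differences close to 0 at such low signals do not show whether these genes responded.

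**Figure D4:**
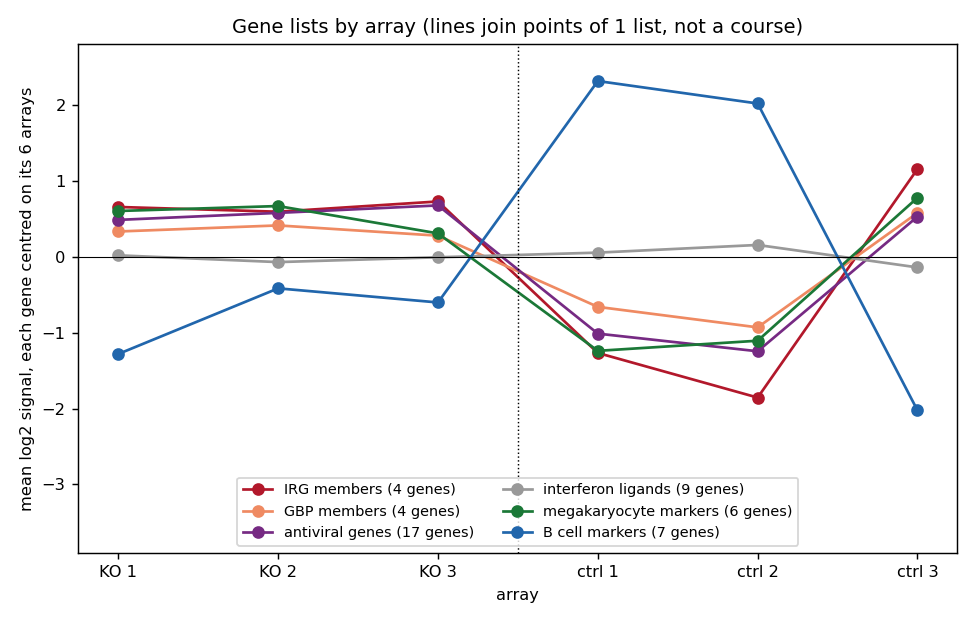
Mean log2 signal of 6 gene lists on each array, each gene first centred on its own mean over the 6 arrays (vertical axis, log2 units), for the 4 immunity-related GTPases, the 4 guanylate-binding proteins, 17 antiviral genes, 9 interferon ligands, 6 megakaryocyte markers and 7 B cell markers. The ligand list stays between -0.14 and 0.15, the GTPases, antiviral genes and megakaryocyte markers are low in control replicates 1 and 2, and the B cell markers are high there.

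Markers of B cells and of megakaryocytes separated the same arrays. The study's methods removed lineage-positive cells with a magnetic depletion kit before the sort for Sca1 and cKit. They do not list the lineages that the kit covers. Control replicates 1 and 2 were the highest 2 arrays for 6 of 7 B cell markers measured, against 10.9% of all probe sets. Their mean log2 signal was 11.66 and 11.37 there, 7.32 in control replicate 3 and 8.07 to 8.93 in KO. Ebf1, a defining factor of early B cells, was at 13.53 and 13.06 in control replicates 1 and 2, at 6.18 in control replicate 3 and at 8.54, 9.42 and 9.64 in KO. For 4 of 6 megakaryocyte and platelet markers control replicates 1 and 2 were the lowest arrays, against 14.1% of all probe sets. The list means were 7.59 and 7.72 there, 9.60 in control replicate 3 and 9.13 to 9.49 in KO. The mean of 13 granulocyte markers was 9.37 to 10.62 in KO and 9.22, 7.96 and 7.17 in control replicates 1, 2 and 3, an order that the members did not have. These markers went both ways, with 8 of 13 above 0, such as Stfa1 (7.74) and S100a8 (4.07), and Ngp (-2.15) and Camp (-1.30) below it. Each of these lists held markers well above the array medians, and an array lists no gene at 0. Markers of LSK cells, 10 of 12 measured, averaged 10.30 to 10.50 in KO and 10.39, 9.87 and 11.24 in control replicates 1, 2 and 3. Control replicate 3 lay above every KO array for 9 of these 10 markers, against 34.0% of all probe sets. Control replicates 1 and 2 were the lowest arrays for 5 of the 10, against 14.1%. The part of these cells in the GTPase levels was not tested.

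Ash2l, the targeted gene, was at 9.65, 9.63 and 9.65 in KO and at 10.76, 10.57 and 10.23 in control cells (1.84-fold lower, difference -0.88, standard error 0.15, with an adjusted p of 0.198 from limma). All 3 controls, control replicate 3 included, lay above every KO array. Where its probes lie on the gene is not given in the sources used here, so exon 4 itself was not measured apart. The level of this probe set therefore does not show how complete the knockout was. The paper reports that RNA holding the floxed exon was strongly reduced in KO cells, on its arrays and by RT-qPCR. It also reports that the protein was almost completely lost in sorted LSK cells.

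The genes most like the members in shape were sought among 2203 genes with an SD of at least 0.5 over the 6 arrays, by Pearson's r with the members' mean centred log2 signal. The 8 highest were Apob, Ppic, Fntb, Kdsr, Gm4951, Gstk1, Cxcl10 and Alkbh7, with r from 0.995 for Alkbh7 to 0.999 for Apob. With 6 arrays and so many genes screened, such values are a description of shape alone. Ppic, a cyclophilin, had the widest swing of the 8, at 13.79, 13.91 and 13.90 in KO and at 10.76, 9.79 and 14.37 in control cells. Gm4951 and Cxcl10 are themselves interferon-inducible.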

How the data were processed

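LSK cell RNA (40 ng per array) was measured on 6 Affymetrix MTA-1.0 arrays, 3 Ash2l KO and 3 control. The authors normalised the arrays with SST-RMA and deposited log2 signals per probe set, used here as they stand; the submitters' processing notes name Affymetrix Expression Console and Transcriptome Analysis Console. The number of arrays limits the precision. Of 65956 probe sets, 30638 carry 1 gene symbol, 654 several names of 1 gene, 1522 several genes and 33142 none; 330 names were updated through RefSeq. Each measured member had 1 probe set of its own. KO and control were compared with limma 3.58.1 (R 4.3.3), with equal weights, no block and no filter, and Benjamini-Hochberg adjustment over all probe sets. The fit was tested on simulated data. Members and lists were chosen with earlier results of these data known. Named were all members, 2 lists of relatives in full, up to 4 largest differences of each other list, Stat2, Irf9, Irf1 and Irf8, Ash2l, and the 8 genes most like the members in shape; Ciita, Nos2, Ido1, genes named as belonging to a small count, Casp1, Nlrc4, Aim2 and the cell markers in part were chosen after their values were seen. Promoter windows came from RefSeq. Alternatives were other scalings, filters, priors, weights, blocks and probe set choices, the methods' test and leaving out each array. Plots used matplotlib 3.10.9 (Python 3.11.15).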

Additional observations from a re-analysis of the deposited data

How the results depend on the processing

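Under each of 11 alternatives that left out no array, 0 of 8 members passed an adjusted p under 0.05. In these and in the 6 fits that left out 1 array, 8 of 8 log2 fold changes stayed above 0. Each member has 1 probe set, so the choice of probe set could not change its log2 fold change. Filters, priors, the t-test and the block by title number could not change it either. The smallest adjusted p of a member was 0.690 in the methods' t-test, 0.216 with array weights (median log2 fold change 1.25) and 0.121 with the label number replicate block. That block pairs the arrays whose descriptions share a number, KO replicate 1 with control replicate 1 and KO replicate 3 with control replicate 2. KO replicate 2 and control replicate 3 share no number and add nothing, so that fit rests on 2 pairs. It gave a median of 1.72 with 6 members past 2-fold and p under 0.01 in limma. The share of all probe sets past that threshold was not computed for this fit. The replicate block by the number in the titles gave a median of 1.01 with 0 and 0 members. Deviations from the group means correlated at 0.16, -0.17 and -0.17 between arrays with the same number in the title. The highest value, 0.28, was that of KO replicate 2 with control replicate 3, which share neither number. The deviations of the few arrays of a group sum to 0, so such values cannot settle whether the titles pair the samples. The pairs with a shared description number correlated at 0.16 each, but there are only 2 of them and the labels do not say what the number marks. Leaving out 1 array in turn gave a median from 0.53 to 1.70 and from 0 to 6 members past either threshold, the 6 only without control replicate 3. Gbp8 changed sign below its threshold, from -0.20 without KO replicate 2 to 0.35 without KO replicate 1.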
